A study of Mus musculus with 6 samples.

Results

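The mRNAs of the cytosolic ribosomal proteins were followed in mature mouse sperm and in whole testes. The genes were taken by name, as every gene whose symbol begins with Rpl or Rps followed by a number, together with Rpsa and the Rplp genes of the ribosomal stalk, and without the Rps6k kinases. This rule found 85 of the 14455 genes that had a RefSeq mRNA in the tables, 53 named for the large and 32 named for the small ribosomal subunit. Of these, 72 encode canonical subunit proteins. The other 13 were 7 paralogs (Rpl3l, Rpl7l1, Rpl10l, Rpl22l1, Rpl36al, Rpl39l and Rps27l), the retrotransposed or pseudogene copies Rpl31-ps12, Rpl34-ps1, Rpl32l, Rpl37rt and Rps27rt, and Rps19bp1, which encodes a binding partner of a ribosomal protein and was taken in only by its name.

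The 4 sperm samples (sperm-1 to sperm-4) came from the cauda epididymis and vas deferens of mice labelled C57BL/6 and aged 3 to 5 months, with several mice pooled and somatic cells lysed. The 2 testes samples (testes-1 and testes-2) were whole testes with the same strain and age labels, and by the study's methods they were pooled from the same set of mice. Those methods name the substrain C57BL/6J and give an age range in weeks that begins and ends earlier than the labelled one. None of the groups carried a treatment or a mutation. Ribosomal RNA was removed with RNase H, and fragments were sequenced from both ends with the strand kept. The study set sperm-1 aside after its check of the correlation between samples, so means and tests used sperm-2, sperm-3 and sperm-4 against both testes samples, and sperm-1 is given beside them.

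The depth was low in sperm. The deposited counts over all transcripts came to between 366455 and 1058017 in the sperm samples and 2606086 and 2866856 in testes. Counts on RefSeq mRNAs were 42390, 100027, 33511 and 54337 in sperm-1 to sperm-4, and 322625 and 314273 in testes-1 and testes-2. These RefSeq mRNA counts are the denominator of every share below, and 1 count was thus worth more of the total in sperm than in testes. Levels per gene are given as CPM, the counts scaled to a RefSeq mRNA total of 1000000. Of 12 marker genes of late spermatids and sperm, 11 were listed in at least 1 sperm sample, with summed levels of 2854 to 4237 CPM in sperm and 3174 to 3570 in testes, while Odf1 was at 0 in sperm. These sums hid genes that were low in sperm, since every value of sperm-2 to sperm-4 lay below both testes values for 7 of the 12 markers, among them Prm1 (20.0, 0 and 36.8 against 381 and 369 CPM), and above both for 2. None of 9 markers of spermatogonia and spermatocytes was listed in sperm. Leydig cell markers were listed for 2 of 6 genes and ranged from 0 to 1194 CPM in sperm, where sperm-3 stood above testes (535 and 580) through 40 counts of Star, and Cyp11a1, Hsd3b1, Insl3 and Lhcgr were at 0. Markers of the epididymal epithelium (3 of 8 genes listed) summed to 0, 20.0, 119 and 166 CPM in sperm-1 to sperm-4 against 49.6 and 105 in testes, so that sperm-3 and sperm-4 lay above both testes samples, with Cdh1, Lcn5, Crisp1, Rnase10 and Defb1 at 0 in sperm. Sertoli cell (2 of 7 genes, at most 40.0 CPM against 68.1 and 74.4) and leukocyte markers (1 of 6, at most 20.0 CPM against 25.5 and 40.3) lay below testes, and the part of other cells in the results below was not tested.

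Ribosomes are built from ribosomal RNA and a fixed set of proteins, each present about once in a small subunit, which reads the mRNA, or in a large subunit, which joins the amino acids. Their mRNAs are among the most abundant of growing cells, and many begin with a short run of pyrimidines at the 5′ end through which their translation is set together. Mature sperm have shed most of their cytoplasm and are held to make little or no protein from cytosolic ribosomes, whereas testes hold germ cells that do.

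To show how far the start regions of these genes hold such runs, 30 bases around the annotated start are printed for genes on which the results turn, with pyrimidine runs of 6 or more bases in capitals. Rps12 (chr10:23787195-23787224, minus strand) and Rpl10 (chrX:74270801-74270830, plus strand) are the genes that led in sperm. Rpl28 (chr7:4792950-4792979, plus strand), Rps2 (chr17:24720048-24720077, plus strand) and Rpl7a (chr2:26910792-26910821, plus strand) were high in testes, as were Rpsa (chr9:120127751-120127780, plus strand) and Rpl41 (chr10:128549154-128549183, minus strand), and Rps18 (chr17:33955651-33955680, minus strand) overlapped between the tissues. All are from RefSeq on GRCm38.p6, the assembly that mm10 names.
Rps12: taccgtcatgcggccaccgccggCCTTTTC
Rpl10: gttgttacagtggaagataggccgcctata
Rpl28: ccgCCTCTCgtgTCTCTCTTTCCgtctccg
Rps2: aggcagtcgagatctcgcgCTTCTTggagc
Rpl7a: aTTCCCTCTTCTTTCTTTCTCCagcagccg
Rpsa: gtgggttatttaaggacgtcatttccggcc
Rpl41: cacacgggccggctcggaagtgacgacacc
Rps18: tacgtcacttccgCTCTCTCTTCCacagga

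The annotated start is the 16th base of each line. A run of at least 6 pyrimidines covered the start base at 18 of the 73 starts listed for 64 of the 85 genes (24.7%), against 2381 of all 32851 starts in the same RefSeq table (7.25%). The letters CTTTC, a core of such runs that also overlaps them, lay in the 30 bases on the gene's strand at 17 of these starts (23.3%) against 1330 of all starts (4.05%), and on either strand at 19 (26.0%) against 2487 (7.57%). The windows of Rpl10, Rpsa and Rpl41 held no run of this length, and those of Rps12 and Rps2 held one after the listed start. Rpl28, Rpl7a and Rps18 had runs of up to 11, 21 and 11 pyrimidines. Windows with and without runs were thus found both among genes high in sperm or overlapping and among genes high in testes. The listed starts of Rps12, Rps2 and Rpl7a lie inside the annotated spans of these genes.

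Summed over all 85 genes, sperm did not stand apart from testes. Ribosomal protein mRNAs made up 0.475% of RefSeq mRNA counts in sperm-1 (Wilson 95% interval 0.415 to 0.547), 0.397% in sperm-2 (0.360 to 0.438), 0.245% in sperm-3 (0.197 to 0.304) and 0.280% in sperm-4 (0.239 to 0.328). They made up 0.441% (0.419 to 0.465) in testes-1 and 0.305% (0.286 to 0.324) in testes-2. These intervals cover counting error only, and PCR copies of a fragment would make them too narrow. The 3 sperm samples averaged 0.307% (SD 0.0798) and the 2 testes samples 0.373% (SD 0.0966), which is a ratio of 0.825, and the samples overlapped. In such bulk samples, fewer cells of a type and less RNA per cell cannot be told apart.

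What differed was which genes made up the share, as the stacked plot of shares shows. Rps12, a protein near the beak of the small subunit, and Rpl10, which joins the large subunit late and is needed for the subunits to meet, were the leading pair of genes in each of the 4 sperm samples, by counts and by FPKM. Together they held 63.0%, 55.4%, 69.5% and 51.2% of the ribosomal protein counts in sperm-1 to sperm-4, but 6.89% and 5.64% in testes-1 and testes-2. At least 50% of the ribosomal protein counts came from these 2 genes in each sperm sample, while 12 genes were needed in each testes sample.

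**Figure D1:**
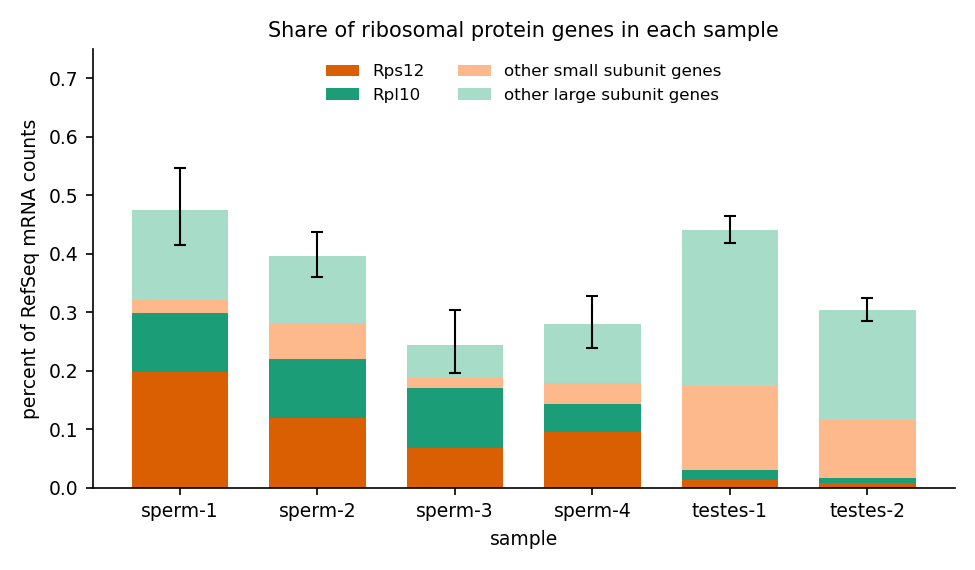
Bars give the percent of RefSeq mRNA counts that fell on ribosomal protein genes in each sample, stacked as Rps12, Rpl10, other small subunit genes and other large subunit genes; error bars are Wilson 95% intervals of the whole bar. The whole bars overlap between sperm (0.245 to 0.475%) and testes (0.305 and 0.441%), while the 2 lowest segments hold 51.2 to 69.5% of the bar in sperm and 5.64 to 6.89% in testes.

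Rps12 had 84, 120, 23 and 52 counts in sperm-1 to sperm-4 and 42 and 26 counts in testes-1 and testes-2. Scaled to depth, these were 1982, 1200, 686 and 957 CPM in sperm and 130 and 82.7 in testes. Every sperm sample thus lay above both testes samples, and the mean level was 8.90-fold higher (948 ± 257, SD, n = 3, against 106 ± 33.6, SD, n = 2). On the length-corrected FPKM scale Rps12 stood at 421, 237, 134 and 214 in sperm and at 31.1 and 21.4 in testes. That placed it at ranks 8, 18, 26 and 19 among all RefSeq mRNA genes of the sperm samples and at 193 and 342 in testes. The gene lies on chromosome 10, and its mRNA of 518 bases was shorter than the median of 703 bases over the 85 genes.

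Rpl10 had 43, 100, 34 and 26 counts in sperm and 56 and 28 in testes. Its level was 1014, 1000, 1015 and 478 CPM in sperm-1 to sperm-4 and 174 and 89.1 in testes. Again no sperm sample fell within the range of testes, and the mean level was 6.33-fold higher (831 ± 305, SD, n = 3, against 131 ± 59.7, SD, n = 2). By FPKM it held ranks 30, 32, 30 and 67 in sperm and 242 and 513 in testes. Rpl10 is X-linked, and its autosomal paralog Rpl10l, known from spermatogenesis, had 0, 3, 0 and 0 counts in sperm and 15 and 2 in testes. The remaining X-linked genes had few counts in both tissues. In sperm, only sperm-2 listed Rpl36a and Rps4x, with 2 counts each, and no sample listed Rpl39. In testes-1 and testes-2, Rpl36a had 4 and 0 counts, Rps4x 3 and 1, and Rpl39 3 and 0.

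The test of each gene compared sperm-2, sperm-3 and sperm-4 with testes by edgeR's quasi-likelihood test over 6828 genes, with trimmed-mean (TMM) scaling and Benjamini-Hochberg adjustment over all of them. A call needed an adjusted p under 0.05 and a change of at least 2-fold. Under this scaling the median gene was already lower in sperm, by a log2 fold change of -1.83, against -1.19 with the RefSeq mRNA totals alone. For Rps12 the fitted log2 change was 2.52 with SE 1.14 (adjusted p = 0.110), and for Rpl10 it was 1.93 with SE 1.13 (adjusted p = 0.217), so neither was called. The call rested on 1 library and on the scaling. Without sperm-3, the sample with the fewest counts, the adjusted p was 1.9e-06 for Rps12 and 0.00088 for Rpl10, and with the RefSeq mRNA totals alone it was 0.00448 and 0.0271. Rps12 was also called by DESeq2 (adjusted p = 0.0483), where Rpl10 was not (0.137), and both by limma on log2(FPKM + 1) (0.00983 and 0.0180).

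Without Rps12 and Rpl10, a comparison chosen after their values were seen, the summed share of the other 83 genes was lower in every sperm sample. This share was 0.176%, 0.177%, 0.0746% and 0.137% in sperm-1 to sperm-4 and 0.411% and 0.287% in testes. Single genes among the 83 were not all lower, as Rpl22 lay above testes in sperm-1, sperm-3 and sperm-4. The sperm mean of 0.130% ± 0.0518 over 3 samples (SD) was 0.371 of the testes mean of 0.349% ± 0.0873 over 2 samples (SD). Rps12 and Rpl10 lay above testes in every sperm sample, so the lower remainder is in part a result of their removal. The median of all genes tested was lower in sperm too, as given above, and no test set these 83 genes apart from it.

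Across the 85 genes, 58 passed the filter of at least 10 counts over the samples compared, mostly through their testes counts, so that their low values in sperm are in part a result of the filter. No gene of these 58 was called lower and none higher by edgeR, where 1.32% of all genes tested were called lower and 0.337% higher. At an unadjusted p under 0.05, 18 ribosomal protein genes were lower, which is 31.0% of those tested against a background of 31.8%, and 1 (Rps12) was higher, against a background of 3.37%. Of the 18 lower genes, 17 were at 0 counts in sperm-2, sperm-3 and sperm-4, and the other was Rpl28. DESeq2 called 7 lower and 1 higher (background 12.1% and 2.65%), and limma called 17 lower and 2 higher (background 22.4% and 3.37%). With all 4 sperm samples edgeR called 14 lower and 0 higher (background 25% and 0.863%), without sperm-3 it called 4 lower and 2 higher (background 11% and 7.96%), and without TMM factors 0 lower and 2 higher (background 3.65% and 3.54%). After edgeR's own filter, filterByExpr, 9 of the genes were left, with 1 lower and 2 higher (background 15.6% and 11.1%). In 26 of the 58 genes every sperm value lay below both testes values (44.8%, background 45%), and in 2, Rpl10 and Rps12, every sperm value lay above (3.45%, background 7.72%). The log2 fold change was negative for 53 of the 58 genes (91.4%), against 74.6% of all genes tested, with a median of -2.11 against -1.83 over all genes tested. With genes at 0 in sperm set to the smallest change that 3 counts over the group allow, the medians were -1.39 and -0.95. The share of genes past an unadjusted p under 0.05 was thus close to that of all genes on the lower side, while the share with a negative change was larger, and no test was made of that difference.

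The levels of 16 genes, the 10 highest by mean FPKM in testes and the 10 highest by mean share in sperm, are shown by sample.

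**Figure D2:**
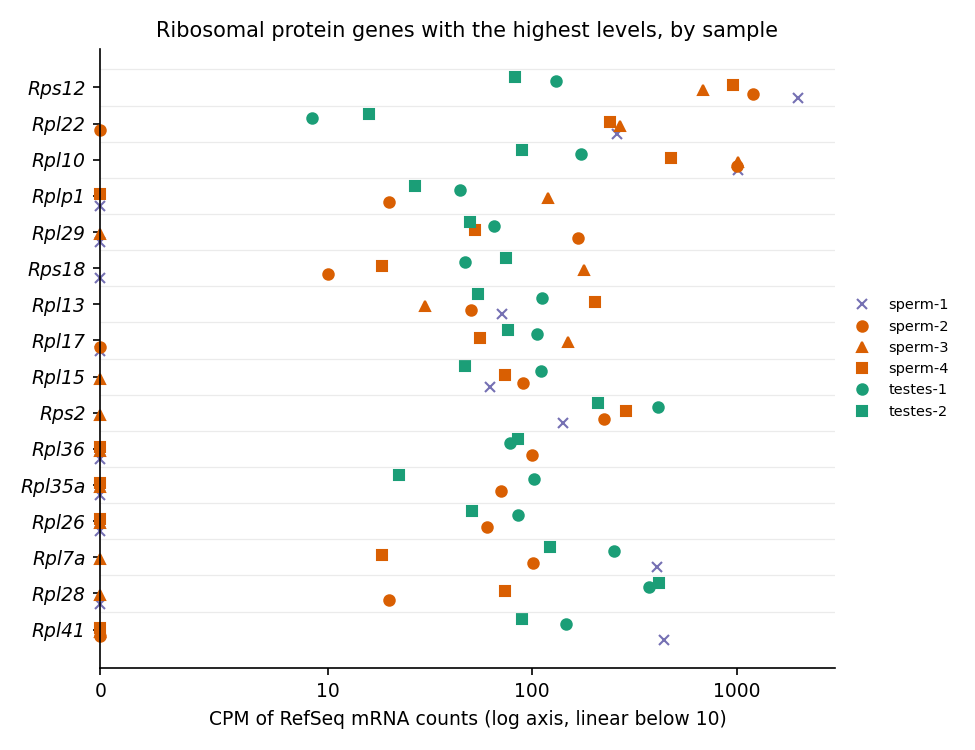
Each row is 1 gene and each symbol 1 sample, placed at its CPM on a log axis that is linear below 10; rows run from the genes with the highest sperm to testes ratio at the top to the lowest. All 4 sperm samples of Rps12 (686 to 1982) and Rpl10 (478 to 1015) lie to the right of both testes samples, while sperm-2 to sperm-4 lie to the left for Rpl28 and Rpl41.

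In testes the order was led by Rpl28, a large subunit protein. Rpl28 had 120 and 131 counts in testes and a level of 103 ± 14.01 FPKM (SD, n = 2). Next came Rps2 at 37.5 ± 15.6 FPKM, which sits at the mRNA entry of the small subunit, then Rpl41 at 33.9 ± 9.66, Rpl36 at 26.6 ± 3.39, Rpl7a at 26.3 ± 11.6, Rps12 at 26.2 ± 6.88 and Rpl10 at 20.3 ± 8.23 (SD, n = 2 each). Among these 7, the step from Rpl28 to Rps2 was wider than the spread between the testes samples, and the neighbours after it did not differ beyond theirs. The listed genes spanned 0.49 to 93.3 FPKM in testes-1 and 0.39 to 113 in testes-2, with medians of 5.25 and 3.15 FPKM. Over all listed RefSeq mRNA genes the median was 0.69 and 0.66 FPKM, and 74 of 76 and 70 of 77 listed ribosomal protein genes lay above it.

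Rpl28 was nearly absent from sperm, with 0, 2, 0 and 4 counts in sperm-1 to sperm-4. At its mean testes share, 39.4 counts would have fallen in sperm-2, 13.2 in sperm-3 and 21.4 in sperm-4. Its mean level was 12.6-fold lower in sperm (31.2 ± 38.1 CPM, SD, n = 3, against 394 ± 31.7, SD, n = 2), and all sperm samples lay below both testes samples. The edgeR fit gave a log2 change of -4.35 with SE 1.39 and an adjusted p of 0.0548, which missed the threshold, while without sperm-3 it was called.

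Rps2 kept a part of its testes level. It had 6, 22.5, 0 and 15.5 counts in sperm and 133 and 65.6 in testes, and its sperm samples reached into the range of testes (170 ± 151 CPM, SD, n = 3, against 310 ± 144, SD, n = 2). Rpl7a, a large subunit protein, had 17.2, 10.0, 0 and 1 counts in sperm and 81.1 and 38.4 in testes, and was listed above testes in sperm-1 and below it in the other sperm samples. Rpsa, a small subunit protein that is also known as the laminin receptor precursor, had 0, 6.56, 0 and 0 counts in sperm and 75.3 and 54.8 in testes. For none of these 3 genes did the edgeR test make a call (log2 fold changes of -1.31, -2.39 and -3.18, adjusted p = 0.484, 0.254 and 0.150).

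Rpl41, which encodes the shortest ribosomal protein, differed between sperm samples. It was at 0 in sperm-2, sperm-3 and sperm-4, at 46.9 and 28.1 counts in testes, and at 18.7 counts in sperm-1. Over sperm-2 to sperm-4, its level was at least 7.35-fold lower than in testes, taking 3 counts over the group as the limit that a count of 0 allows. In sperm-1, however, its 440 CPM exceeded both testes samples (145 and 89.3), and with all 4 sperm samples in the fit its log2 fold change shrank to -1.48 (adjusted p = 0.579 by edgeR).

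Rpl23, Rps27a, which is made as a fusion with ubiquitin, Rps3a1 and Rpl11 were at 0 in all 4 sperm samples. In testes they had 12.1 and 30, 31.1 and 15.6, 24 and 14, and 15 and 21.0 counts in testes-1 and testes-2. Their levels over sperm-2 to sperm-4 were at least 4.16-fold, 4.58-fold, 3.72-fold and 3.54-fold lower than in testes. In edgeR these 4 genes shared an adjusted p of 0.0548 with Rpl28 and Rpl41. The adjustment gave this same value to many other genes, among them Rpl4, Rps13, Prm1 and Mrps34, so it does not set these genes apart.

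Rpl22, a large subunit protein that also binds certain viral RNAs, was higher than testes in 3 of the 4 sperm samples. It had 11, 0, 9 and 13 counts in sperm-1 to sperm-4 and 3 and 5 in testes. Sperm-1, sperm-3 and sperm-4 lay above testes and sperm-2, the deepest sperm sample, below it. The edgeR fit gave it a log2 change of 2.36 with SE 1.75 and an adjusted p of 0.339, and none of the alternatives run called it.

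The scatter of counts seen in sperm against those that the testes share would give sets all 85 genes side by side.

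**Figure D3:**
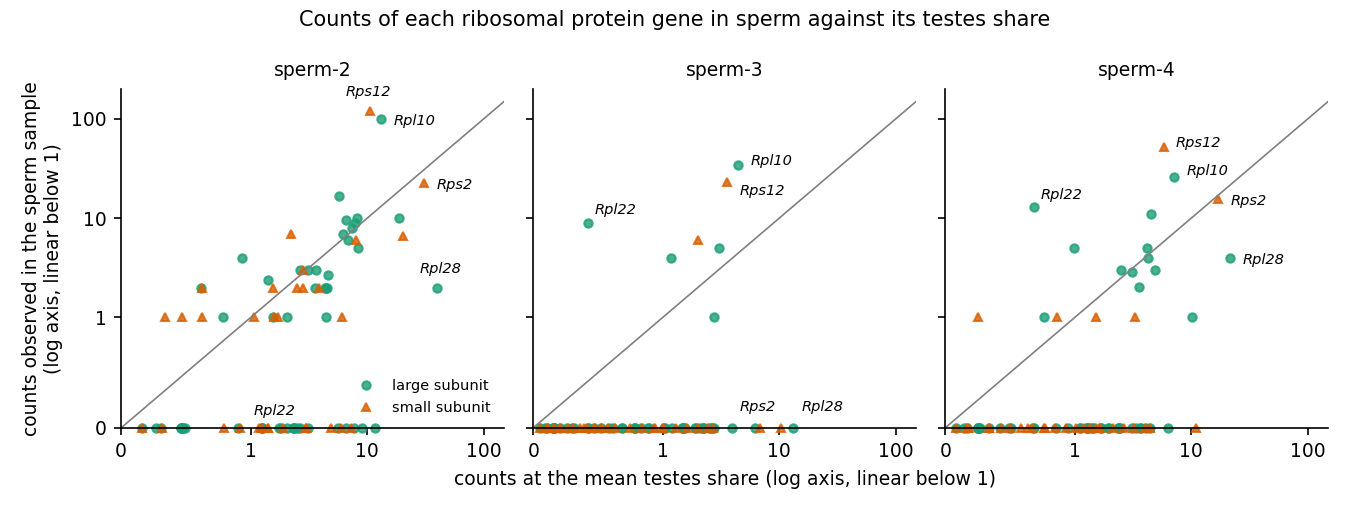
Each point is 1 gene in 1 sperm sample, with the counts that its mean testes share would give at that depth on the horizontal axis and the counts observed on the vertical axis, both log axes that are linear below 1; the line marks equal values, with large subunit genes as circles and small subunit genes as triangles. Rps12 and Rpl10 lie above the line in all 3 panels, and most other genes lie on or below it, many at 0.

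The proteins of the stalk, which bind the factors that drive translation, had few counts, though Rplp1 was among the 10 highest mean shares in sperm. Rplp0 had 2, 0, 0 and 5 counts in sperm and 24.0 and 25.4 in testes. Rplp1 had 0, 2, 4 and 0 counts in sperm and 14.3 and 8.39 in testes, and the order of the groups could not be told from so few counts, since its log2 fold change of -0.88 (adjusted p = 0.716, edgeR) turned to 0.20 with the RefSeq mRNA totals alone. Rplp2 was at 0 in sperm and had 0.99 and 2 counts in testes.

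Rps18, Rpl13, Rpl29, Rpl17 and Rpl15 were also among the 10 highest mean shares in sperm, which does not place them above testes. The edgeR log2 fold changes were -1.30, -0.60, -1.85 and -0.90 for Rps18, Rpl13, Rpl17 and Rpl15, and 0.11 for Rpl29. Rps18, which sits in the head of the small subunit, had 0, 1, 6 and 1 counts in sperm and 15.1 and 23.3 in testes. For Rpl13 the counts were 3, 5, 1 and 11 in sperm and 36 and 17 in testes. Rpl29 reached 16.7 counts in sperm-2 and 2.84 in sperm-4 against 21.0 and 15.6 in testes, and was at 0 in sperm-1 and sperm-3. Rpl17 had 0, 0, 5 and 3 counts in sperm and 33.9 and 23.95 in testes, and Rpl15 had 2.63, 9, 0 and 4 in sperm and 35.5 and 14.7 in testes. Rpl36 was among the 10 highest in testes but not in sperm, and reached 10 counts in sperm-2 alone, against 25 and 26.9 in testes. For each of these genes the sperm samples overlapped testes or reached past both sides of it.

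Large and small subunit genes were compared next, since a ribosome holds 1 of each subunit. For the large subunit, the genes held 0.174% ± 0.0360 of RefSeq mRNA counts over 3 sperm samples and 0.241% ± 0.0622 over 2 testes samples (SD), or 0.722 of testes. For the small subunit, they held 0.133% ± 0.0478 and 0.132% ± 0.0344 (SD over the same samples), or 1.01 of testes. Both overlapped between the tissues.

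The ratio of large to small subunit counts was 1.17, 1.18, 1.83 and 1.13 in sperm-1 to sperm-4 and 1.82 and 1.83 in testes. Sperm-1, sperm-2 and sperm-4 lay below both testes samples and sperm-3 between them. With length taken into account the separation was complete, as the ratio of summed FPKM was 0.749, 0.933, 1.09 and 0.693 in sperm and 2.26 and 2.18 in testes. Without Rps12 and Rpl10 sperm-1, sperm-3 and sperm-4 lay above both testes samples and sperm-2 just below, with count ratios of 7.28, 1.86, 3.17 and 2.81 in sperm against 1.87 and 1.90 in testes. Rps12 alone held 41.7%, 30.2%, 28.05% and 34.1% of all ribosomal protein counts in sperm-1 to sperm-4.

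Of single genes tested, 12 of 39 large subunit genes (30.8%) and 6 of 19 small subunit genes (31.6%) were lower at an unadjusted p under 0.05, against 31.8% of all genes tested, and the median log2 fold changes were -2.13 and -2.08. Without Rpl10 and Rps12, the share in sperm was 0.399 of that in testes for the large and 0.319 for the small subunit, and in both all sperm samples lay below both testes samples. Both genes were picked after their values were seen, and both lay above testes in every sperm sample. The lower remainder in sperm is thus in part a result of their removal.

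The number of ribosomal protein genes listed at all was lower in sperm. Sperm-1 to sperm-4 listed 12, 44, 7 and 19 of the 85 genes, and testes-1 and testes-2 listed 76 and 77. Only Rpl10, Rpl13 and Rps12 were listed in all 6 samples. Another 35 genes were at 0 in all 4 sperm samples, 67 had 5 or fewer counts in each of them, and 28 of those listed in sperm-2 to sperm-4 were listed in sperm-2 alone. These counts across samples, unlike the shares listed per sample, were not made over all genes. No gene was listed in sperm and missing from both testes samples.

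The numbers in sperm were lower than those that depth would give from the testes samples. Thinned to the depth of sperm-2, testes-1 and testes-2 would list 67.2 and 63.3 of the genes, against 44 listed in sperm-2. At the depth of sperm-3 they would list 49.5 and 42.1 against 7, and at that of sperm-4 58.2 and 51.9 against 19. The same held for all RefSeq mRNA genes, of which testes thinned to the depth of sperm-2 would list 9053 and 8361 against 6710 in sperm-2. At the depth of sperm-3 they would list 5976 and 5417 of all genes against 1546, and at that of sperm-4 7303 and 6670 against 3305. Of the 36 ribosomal protein genes for which the testes share would give at least 3 counts in sperm-2, 11 were at 0 there. This count was not made over all genes, so it does not set the ribosomal protein genes apart.

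**Figure D4:**
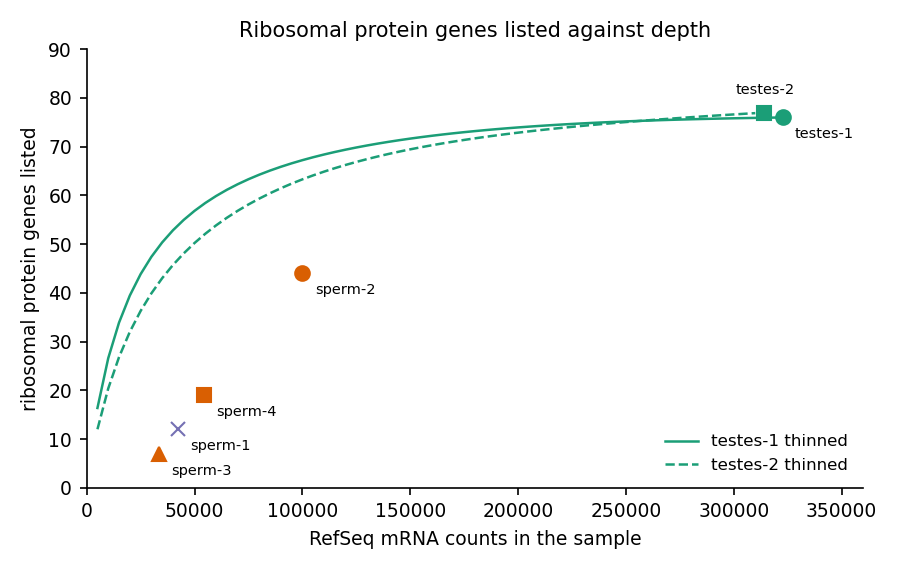
The horizontal axis gives the RefSeq mRNA counts of the sample and the vertical axis the number of the 85 ribosomal protein genes listed; symbols are the 6 samples, and the lines are the numbers expected when testes-1 (solid) and testes-2 (dashed) are thinned to fewer counts. The 4 sperm samples (7 to 44 genes) lie below both lines.

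The paralogs, which in several cases are known to be used in particular tissues, were rare in both tissues and most were seen in testes alone. Rpl39l, reported from male germ cells, and Rpl39, its X-linked parent, each had 3 counts in testes-1 and 0 elsewhere. Rpl3l had 2 and 1 counts in testes, and Rpl22l1 had 3 counts in testes-2. Rpl7l1 had 0, 2.38, 0 and 1 counts in sperm and 6.02 and 3 in testes. At these counts a difference between sperm and testes was not detectable. Fragments that match both a gene and a near-identical copy may have been split or moved between them, so the counts of genes with such copies are uncertain.

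Mitochondrial ribosomal proteins, which are encoded by nuclear genes and serve a separate ribosome, were set beside them. Their 63 genes held 0.393% ± 0.0125 of RefSeq mRNA counts over 3 sperm samples and 0.977% ± 0.125 over 2 testes samples (SD), with every sperm sample below both testes samples. By summed FPKM the groups overlapped, at 0.664% ± 0.208 and 0.691% ± 0.0502 (SD over the same samples). A single gene, Mrps25, made up 76.1% and 79.4% of these counts in testes-1 and testes-2, and without it the shares of sperm-2 to sperm-4 were 0.309%, 0.131% and 0.330% against 0.212% and 0.220% in testes. Of the 18 tested, edgeR called Mrps25 lower (log2 fold change -3.60, adjusted p = 0.00601) and none higher. The call of Mrps25 was lost without sperm-2, sperm-4 or testes-1 (adjusted p = 0.0806, 0.139 and 0.177 by edgeR).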

How the data were processed

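Strand-specific, rRNA-depleted RNA-seq tables of 4 sperm and 2 testes samples were used. The deposited tables gave, per transcript, an expected count and FPKM made by the authors; the paper names SOAPaligner and the submitters' processing notes name HISAT and mm10, and the counting program is not given in the sources used here. Rows with RefSeq mRNA identifiers were kept, expected counts were summed per gene symbol, absent rows were set to 0, and levels were divided by the sample's RefSeq mRNA total. For tests, counts were rounded to whole numbers, genes with fewer than 10 counts over the 5 samples compared were left out, and edgeR 4.0.16 (R 4.3.3) was run with TMM and its quasi-likelihood test. DESeq2 1.42.0 and limma 3.58.1 on log2 of the deposited FPKM + 1 were alternatives, as were no filter, filterByExpr, no TMM, all 4 sperm samples and leaving out each sample.

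The rule for genes described by level was the 10 highest in mean FPKM in testes and the 10 highest in mean share in sperm. Other genes named were picked from subunit, stalk, paralog and X-linked lists or after their values were seen. The members and lists were chosen with earlier results of these data known. Thinning used the exact expectation without replacement. Sperm samples were pools of mice, and p-values measure only the spread between these samples. The tests were run on simulated data first. Promoter letters came from a RefSeq table on GRCm38.p6, which held 64 of the 85 genes.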

Additional observations from a re-analysis of the deposited data

Results flagged for a closer look

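Values of the 4 sperm samples were screened for a sample far from the others, a check that marks about 1 in 20 groups by chance. It was run on 20 quantities and marked 5. The share of mitochondrial ribosomal protein genes was 0.572% in sperm-1 against 0.383 to 0.407% in the other sperm samples. The ratio of large to small subunit counts was 1.83 in sperm-3 against 1.13 to 1.18 in the others. Rpl10 stood at 478 CPM in sperm-4, below the other 3 samples. Rpl22 was at 0 in sperm-2, and Rpl41 stood at 440 CPM in sperm-1 and at 0 in the other 3.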

How the results depend on the processing

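The count of ribosomal protein genes called lower in sperm was 0 in the main test, 7 with DESeq2, 17 and 15 with limma (FPKM + 1 and FPKM + 0.1), 1 after filterByExpr, which left 9 of the genes, and 14 with all 4 sperm samples. The count called higher was 0 in the main test, 2 without TMM factors, 1 with DESeq2, 2 with limma at either offset and 2 after filterByExpr. With no filter both counts were 0, where 190 of all 14387 genes tested were called lower and 32 higher. Limma at FPKM + 0.1 called 1792 of all 6828 genes tested lower and 199 higher. Leaving out sperm-3 gave 4 lower and 2 higher. Leaving out sperm-2 or sperm-4 gave 0 of each. Without sperm-2 no gene of all 6355 tested was called, and without sperm-4 14 of 6620 were lower and 9 higher. The counts of 0 from these fits thus do not set the ribosomal protein genes apart. Rplp1 changed sign without TMM factors (log2 fold change 0.20), and no other gene whose fold change is printed did so under any alternative. Without Rps12 and Rpl10, which was chosen after seeing the data, the summed share in sperm was 0.371 of testes instead of 0.825 and the ratio of large to small subunit counts 2.61 instead of 1.38. With both genes kept, that ratio in sperm was 0.907 from summed FPKM. Thinned to the sperm depths, testes listed 55.4 genes on average, against 23.3 in sperm. A replicate block on all 6 samples gave 0 ribosomal protein genes lower and 0 higher, where 51 and 25 of all 6949 genes tested were called. Nothing in the labels ties samples of the same number, and only 2 numbers are shared between the tissues. Deviations of same-numbered samples from their group means had a mean r of -0.0337 across genes. With 2 testes samples the testes deviations mirror each other, and counts in sperm were low, so this value cannot exclude a pairing. Depth limits these results: 67 of the 85 genes had 5 or fewer counts in each sperm sample, and for most genes a difference between subunits, paralogs or sperm samples was not detectable.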

Other observations

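Ribosome biogenesis factors held 0.717% ± 0.101 (SD, n = 3) of RefSeq mRNA counts in sperm-2 to sperm-4, 0.406% in sperm-1 and 0.403% ± 0.0208 (SD, n = 2) in testes. In sperm most of the counts were Fbl, the methyltransferase of the box C/D particles that modify ribosomal RNA, with 144, 457, 140 and 344 counts in sperm-1 to sperm-4 and 550 and 456 in testes. For Fbl every sperm-2 to sperm-4 value lay above both testes values after scaling to RefSeq mRNA totals, and the edgeR fit gave a log2 change of 0.90 with SE 0.75 and an adjusted p of 0.405, so it was not called, while without sperm-3 it was (adjusted p = 0.00234 by edgeR). Of the 15 biogenesis genes tested, edgeR called 0 in either direction, against 1.32% of all genes tested called lower and 0.337% higher. At an unadjusted p under 0.05, 4 were lower (26.7%, against 31.8% of all genes tested). Their median log2 fold change was -1.74, against -1.83 over all genes tested. The 13 RNA polymerase I genes gave 6 that could be tested, of which 0 were called. At an unadjusted p under 0.05, 2 were lower (33.3%, against the same 31.8% of all genes tested), with a median of -0.53.

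Among mitochondrial ribosomal protein genes Mrps34 went the other way from Mrps25, with 97, 184, 22 and 78 counts in sperm-1 to sperm-4 and 12 and 18 in testes (log2 fold change 4.19, SE 1.22, adjusted p = 0.0548 with edgeR). Without sperm-3 it was called (adjusted p = 1.3e-13 by edgeR), and also with all 4 sperm samples (0.0342) and with DESeq2 (0.00167). It was not called without sperm-2 or without sperm-4 (adjusted p = 0.0806 and 0.139 by edgeR). With a single testes sample kept, its log2 fold change was 3.98 without testes-1 and 5.12 without testes-2.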
